A study of Mus musculus with 6 samples.

Results

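Acta1 and Actc1 encode the actins of the thin filaments in the sarcomere, the contractile unit of striated muscle, and Myl1, Myl2, Myl3, Myl4, Mylpf and Myl6b encode light chains that wrap around the neck of the myosin heads. These 8 genes were taken by symbol from a table of 20950 entries and are described in all 6 mRNA libraries. The libraries come from C2C12, a mouse myoblast line that stops dividing and fuses into myotubes when serum is reduced. Growing cells in DMEM with 10% FBS (fetal bovine serum) gave 1 library. Differentiating cells gave 1 library in 2% HS (horse serum), 1 in 2% HS + exosome, 1 in 0.2% FBS and 2 in 0.2% FBS + exosome, called replicates 1 and 2 here. Exosomes, small vesicles that cells release, had been isolated from FBS and were added in the amount that 10% FBS contains. No label names a genetic change, and every library comes from the same line. The labels do not say that replicates 1 and 2 came from separate cultures, so the p-values below measure only the spread between these libraries. The comparison asks how serum reduction and FBS exosomes change the transcripts of the contractile filaments.

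Striated muscle uses several genes for each of these proteins. Acta1, the skeletal α-actin, and Actc1, the cardiac α-actin, are nearly the same protein, and developing skeletal muscle expresses both. Each myosin heavy chain binds 1 regulatory and 1 essential light chain. Mylpf encodes the fast skeletal regulatory chain and Myl2 the slow skeletal and ventricular one. Among the essential chains, Myl1 is the fast skeletal form, Myl4 the embryonic and atrial form, Myl3 the slow skeletal and ventricular form, and Myl6b a slow muscle form that other cells express as well. The actins and light chains appear when myoblasts differentiate, under the control of myogenic factors that bind E-boxes and of the serum response factor, which binds CArG boxes.

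The deposited values are FPKM, in which read numbers are corrected for library depth and for the length of the transcript, so levels of different genes can be compared. They summed to between 461439 and 515215 per library. No read counts were used here, and the depth was estimated from the spacing of low FPKM values at 33700000 to 39500000 reads, with 73.2% to 75.4% of these values within 0.1 of a whole read. All 7 myogenic markers examined were present in every library (Myod1 lay between 83.7 and 110 FPKM). The 4 adipocyte markers summed to at most 0.364 FPKM and the 4 osteoblast markers to at most 0.351 FPKM, the 6 cardiac markers to between 13.8 and 20.2 FPKM, and the 5 smooth muscle markers to between 104 and 167 FPKM. Of the 4 blood cell markers 3 were found, with a sum of 0.466 to 3.60 FPKM and Hbb-b1 listed at 0. In such bulk RNA, fewer differentiated cells and less RNA per cell cannot be told apart.

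The actins are shown first by sequence, because a read can be credited to the right member only where their transcripts differ. Over the 1134 coding bases of the GENCODE transcripts on mm10, Acta1 and Actc1 differed at 157, an identity of 86.2%. These changes fell in 150 of 377 codons, but only 4 codons (1.06%) encoded another amino acid. The first 90 coding bases follow, 5′ to 3′, with capitals at the 14 bases that differ.
Acta1: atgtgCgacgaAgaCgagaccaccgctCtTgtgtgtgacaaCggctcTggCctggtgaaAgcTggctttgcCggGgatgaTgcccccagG
Actc1: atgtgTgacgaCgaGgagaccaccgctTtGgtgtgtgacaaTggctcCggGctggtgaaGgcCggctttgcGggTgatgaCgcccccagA
A read of 75 bases, the length used, would cross several of these differences. Of the 1372 stretches of 75 bases in the Acta1 transcript, 6 (0.437%) also occurred in a transcript of another gene, Gm47692 or Actb, and none of the 1399 in Actc1 did. Among the light chains, 167 of 1008 stretches of Myl1 (16.6%) were shared with the pseudogene Mylf-ps, so the level of Myl1 is less certain than the others. Mylpf, Myl2, Myl4, Myl6b and Myl3 shared none.

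The promoters are shown next as sequence, and whether they bear on the levels below was not tested. All 8 members matched a RefSeq promoter on GRCm38.p6, and the 250 bases before the start were searched on both strands. A CArG box, the site bound by serum response factor, lay in 3 of the 8, those of Acta1, Actc1 and Myl3, against 1.47% of 32851 promoter windows of the same length. The general E-box CANNTG was found in 6 of 8 members and in 66.2% of windows. CAGCTG, which is contained in that E-box, was found in 4 of 8 members (Acta1, Mylpf, Myl1 and Myl2) and in 13.0% of windows. Of these, the stretch of bases around the Myl1 match overlaps annotated Myl1 exons, and the match alone was not checked. Myl2 has 2 RefSeq windows, both well before its GENCODE start, of which 1 holds the match. The MCAT element was present in 2 members, Acta1 and Myl3, and in 4.51% of windows. The MEF2 site was present in 0 members and in 2.92% of windows. In the windows below the CArG box or the E-box is in capitals, and each is written on the strand of its gene. The windows of Actc1, Mylpf and Myl3 lie inside the GENCODE span of their genes but overlap no annotated exon.
Acta1, CArG box from −73 to −64 relative to the start, chr8:123894814-123894873, minus strand: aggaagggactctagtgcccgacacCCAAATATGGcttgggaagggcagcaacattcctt
Actc1, CArG box from −47 to −38, chr2:114052888-114052947, minus strand: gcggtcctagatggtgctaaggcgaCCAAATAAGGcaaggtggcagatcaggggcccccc
Myl3, CArG box from −85 to −76, chr9:110763568-110763627, plus strand: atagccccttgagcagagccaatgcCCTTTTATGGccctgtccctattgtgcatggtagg
Mylpf, E-box from −51 to −46, chr7:127211532-127211587, plus strand: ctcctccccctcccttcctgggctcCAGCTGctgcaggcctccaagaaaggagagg
Of the 3 genes with a CArG box, Acta1 and Actc1 were among the most abundant transcripts and Myl3 was close to 0. A match is a description of these letters and no binding was measured.

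Acta1, Actc1, Mylpf, Myl1, Myl4 and Myl6b, 6 of the 8 genes, shared 1 pattern. They were higher in 2% HS, 2% HS + exosome and 0.2% FBS than in 10% FBS, and lower in both 0.2% FBS + exosome libraries than in any of those 3. The other members were far lower in level. Myl2 was raised in the 2% HS libraries and Myl3 was close to 0 in every library. Together the 8 genes made up 1.97% of the summed FPKM in 10% FBS, 4.52% in 2% HS, 4.55% in 2% HS + exosome and 4.85% in 0.2% FBS. In 0.2% FBS + exosome they made up 1.95% in replicate 1 and 1.21% in replicate 2.

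Acta1 (chr8:123891769-123894751, minus strand, 7 exons) was at 2034 FPKM in 10% FBS, 4500 in 2% HS, 4077 in 2% HS + exosome and 5322 in 0.2% FBS. With exosomes in 0.2% FBS replicate 1 had 2335 FPKM and replicate 2 had 1610, for a mean of 1972 ± 512 (SD, n = 2). The 10% FBS level thus lay between the replicates, and the 3 other libraries lay above both. Among all entries Acta1 ranked 2 in both 2% HS and 0.2% FBS, 4 in 2% HS + exosome and 18 in 10% FBS, and it ranked 10 and 48 with exosomes in 0.2% FBS.

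Actc1 (chr2:114047282-114053548, minus strand) was at 1311 FPKM in 10% FBS, 2320 in 2% HS, 2386 in 2% HS + exosome and 3401 in 0.2% FBS. The 0.2% FBS + exosome libraries were at 1394 and 855 FPKM (SD 381, n = 2). As for Acta1, the 0.2% FBS library was the highest of the 6, and the 10% FBS level lay between the exosome replicates. The 2% HS libraries differed from each other by less than that SD, which measures the spread of the 0.2% FBS + exosome libraries only.

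Mylpf (chr7:127208890-127214298, plus strand), the regulatory light chain, was the first of all 20950 entries in 2% HS, 2% HS + exosome and 0.2% FBS, at 7377, 7134 and 8128 FPKM. It was at 3306 FPKM in 10% FBS, where it ranked 6. With exosomes in 0.2% FBS its level was 2740 FPKM in replicate 1 and 2118 in replicate 2 (SD 440, n = 2), with ranks of 6 and 24. Both of these were below the growing cells.

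Myl1 (chr1:66924295-66945404, minus strand), the fast essential chain, measured 1418 FPKM in 10% FBS, 3697 in 2% HS, 3587 in 2% HS + exosome and 3593 in 0.2% FBS. Exosomes in 0.2% FBS went with 1309 FPKM in replicate 1 and 1053 in replicate 2 (SD 181, n = 2). The 3 high libraries lay within that SD of each other, but it measures the spread of the 0.2% FBS + exosome libraries only.

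Myl4 (chr11:104550663-104595753, plus strand), the embryonic chain, was at 1009 FPKM in 10% FBS, 3150 in 2% HS, 3827 in 2% HS + exosome and 3120 in 0.2% FBS. With exosomes in 0.2% FBS it was at 1117 FPKM in replicate 1 and 552 in replicate 2 (SD 399, n = 2), a wider relative spread than for any other of the 6 abundant genes. Its 2% HS + exosome value was the highest of the 6 libraries. On the log2 scale that value exceeded the 2% HS value by 0.28, less than the replicate SD of 0.72. That SD measures the spread of the 0.2% FBS + exosome libraries only.

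Myl6b (chr10:128494157-128498685, minus strand) was the least abundant of the 6, at 130 FPKM in 10% FBS, 272 in 2% HS, 300 in 2% HS + exosome and 307 in 0.2% FBS. Its exosome libraries in 0.2% FBS were at 92.9 and 68.1 FPKM (SD 17.5, n = 2), both below 10% FBS. It ranked 248 in 0.2% FBS and 760 and 1106 in those replicates.

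**Figure D1:**
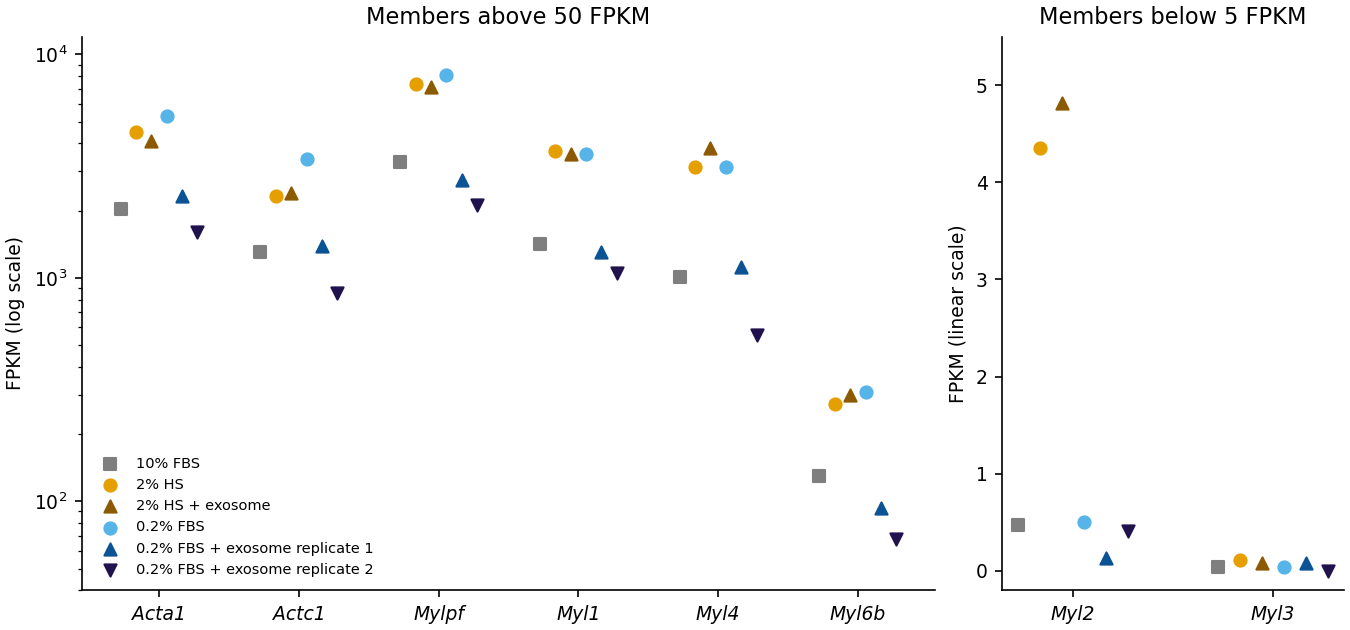
FPKM of each gene in the 6 libraries, on a log scale for the 6 genes above 50 FPKM and on a linear scale for Myl2 and Myl3, with 1 symbol per library and no averaging. In the left panel both 0.2% FBS + exosome symbols and the 10% FBS symbol sit below the other 3 libraries for every gene, and in the right panel the 2% HS libraries hold Myl2 at 4.35 and 4.82 FPKM.

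Libraries were compared by the difference of their log2(FPKM + 1) values, and a gene was called where the difference passed 1 or −1, the threshold of the study. Without replicates of 10% FBS, 2% HS or 0.2% FBS, there is no replicate check on what separates 2 of these libraries. The members and the lists below were chosen with earlier results of these data known. The shares of all genes given beside their counts are therefore a description.

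Serum reduction was accompanied by higher levels of the abundant actins and light chains in both media. In 0.2% FBS the 6 abundant genes were each higher than in 10% FBS by more than 1 on the log2 scale, 6 of 8 members against 1.79% of the 10731 genes whose mean reached 1 FPKM. The differences were 1.39 for Acta1, 1.37 for Actc1, 1.30 for Mylpf, 1.34 for Myl1, 1.63 for Myl4 and 1.24 for Myl6b, which correspond to FPKM ratios of 2.37 (Myl6b) to 3.09 (Myl4). The median over the 8 members was 1.32, and over all genes it was −0.09. Myl2 was at a difference of 0.03.

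In 2% HS, 5 of the 6 abundant genes were higher than in 10% FBS by more than 1, and 1.79% of all genes were. Actc1, at 0.82, was below the threshold. Myl2 also passed, but it is not counted here because it reached the mean of 1 FPKM only through its 2% HS values. The 5 were at 1.15 for Acta1, 1.16 for Mylpf, 1.38 for Myl1, 1.64 for Myl4 and 1.06 for Myl6b. Actc1 was also the abundant member with the largest difference between the media without exosomes, at 0.55 higher in 0.2% FBS than in 2% HS. Myl1 and Myl4 differed by −0.04 and −0.01 between them. Both serum comparisons use the same 10% FBS library.

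limma was fitted to all 10731 genes with 1 mean per condition. It takes its only residual degree of freedom from the pair of 0.2% FBS + exosome libraries and assumes that the single libraries vary like that pair. It also draws the spread of each gene towards that of other genes of similar level. A p-value of limma thus does not rest on the values of 1 gene alone. The fit called none of the 7 members tested for 0.2% FBS against 10% FBS after Benjamini-Hochberg adjustment over all genes. However, it called only 1 gene of 10731 higher (0.00932%) and 1 lower. Unadjusted, 2 members had a p under 0.05, as did 17.7% of all genes. Myl6b was nearest, with an adjusted p of 0.0953. For 2% HS against 10% FBS it called 1 of 7, Myl2 (difference 1.86, SE 0.25, adjusted p = 0.0416), while 0.401% of all genes were called higher. An unadjusted p under 0.05 was found for 3 members and for 16.8% of all genes. Myl2 entered the fit only through its 2% HS values, since it was at most 0.501 FPKM in the other 4 libraries, so this call is a description of those values and no independent test. It was lost under every other setting of the fit, with adjusted p between 0.0525 and 0.414.

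Exosomes in 0.2% FBS were accompanied by lower levels of the same 6 genes. Each was lower than in the 0.2% FBS library by more than 1 in each of the 2 exosome libraries, 6 of 8 members against 1.61% of all genes (173 of 10731). These values share the 0.2% FBS library with the serum comparison above. The mean differences were −1.46 ± 0.38 for Acta1, −1.64 ± 0.50 for Actc1, −1.75 ± 0.26 for Mylpf, −1.61 ± 0.22 for Myl1, −1.99 ± 0.72 for Myl4 and −1.94 ± 0.31 for Myl6b (SD of the exosome libraries, n = 2). The remaining level in replicate 1 was between 0.302 (Myl6b) and 0.439 (Acta1) times that without exosomes. In replicate 2 it was between 0.177 (Myl4) and 0.303 (Acta1) times.

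The median over the 8 members was −1.63, against 0.14 over all genes. With every library scaled to the same 75th percentile the medians were −1.78 and −0.0008. Replicate 2 was lower than replicate 1 for all 6 genes, by 0.31 on the log2 scale for Myl1 up to 1.01 for Myl4. Ordered by the mean difference among the 10731 genes, Myl4 stood at rank 21 from the lowest, Myl6b at 29, Mylpf at 47, Actc1 at 59, Myl1 at 63 and Acta1 at 84, and Myl2 stood at 1616. Among the 7 myogenic markers, Ckm was at −1.13, Des at −0.92, Chrna1 at −0.91, Myog at −0.82 and Myod1 at −0.23, while Cdh15 was at 0.29 and Myf5, a factor of undifferentiated myoblasts, at 0.96. The part of the share of differentiated cells in these values was not tested.

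In the limma fit 1 of the 7 members tested, Myl6b, fell with exosomes in 0.2% FBS (−1.94, SE 0.26, adjusted p = 0.00764), and 4.32% of all genes were called lower. Myl4 had an adjusted p of 0.0566 (SE 0.57), Actc1 of 0.0790 (SE 0.54), Myl1 of 0.0841 (SE 0.54), Mylpf of 0.144 (SE 0.73) and Acta1 of 0.159 (SE 0.64). Unadjusted, 5 members had p under 0.05, as did 31.5% of all genes. The fit lets the expected spread follow the mean level, and the most abundant gene, Mylpf, received the largest SE although its replicate SD was below that of Myl6b. Without that trend all 6 abundant genes were called, with adjusted p from 0.0186 to 0.0298, and 3.84% of all genes were called lower. Without the filter on low genes none was, and Myl6b had an adjusted p of 0.243.

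**Figure D2:**
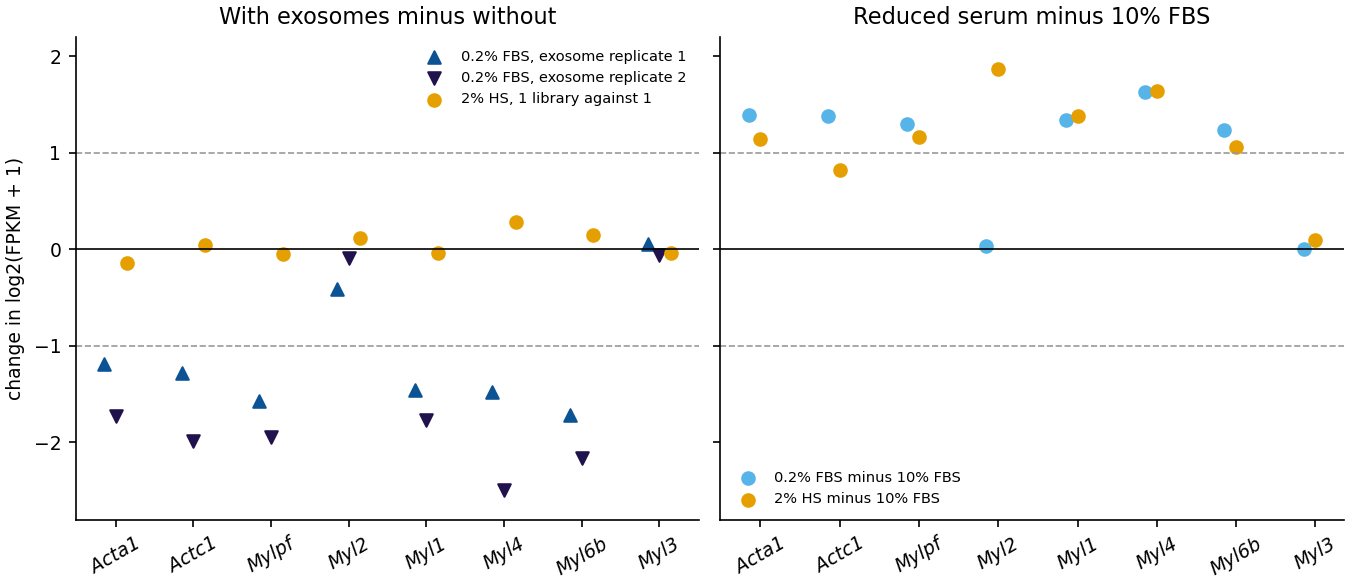
Differences in log2(FPKM + 1) for each gene, with exosomes minus without in the left panel and reduced serum minus 10% FBS in the right, and dashed lines at the threshold of 1 and −1. Both 0.2% FBS symbols of the 6 abundant genes lie below −1 while their 2% HS symbols lie between −0.14 and 0.28, and Myl3, at about 3 estimated reads or fewer in every library, stays near 0 on this scale.

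In 2% HS the same addition was accompanied by small differences of either sign. None of the 8 members was lower by more than 1, nor was more than 0.298% of all genes (32 of 10731). The differences were −0.14 for Acta1, 0.04 for Actc1, −0.05 for Mylpf, −0.04 for Myl1, 0.28 for Myl4, 0.14 for Myl6b and 0.12 for Myl2, with a median over the 8 members of 0.002 and over all genes of −0.04. limma called 0 of 7 members here and only 0.0186% of all genes lower. An unadjusted p under 0.05 was found for 0 members and for 4.72% of all genes. The SEs reached 0.85 (Mylpf), so the fit could not detect a difference as small as those measured. All adjusted p were 1.00.

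Whether exosomes acted differently in the 2 media was tested in the same fit, as the effect in 0.2% FBS minus the effect in 2% HS. This difference was −1.31 for Acta1 (adjusted p = 0.491), −1.68 for Actc1 (0.304), −1.71 for Mylpf (0.436), −1.57 for Myl1 (0.338), −2.27 for Myl4 (0.213) and −2.08 for Myl6b (SE 0.39, adjusted p = 0.0520). None of the 7 members passed, and 0.867% of all genes were called with a more negative value in 0.2% FBS. Unadjusted, 2 members and 19.5% of all genes had a p under 0.05. Myl6b passed with a pseudocount of 0.1 (adjusted p = 0.0443) and with 75th percentile scaling (0.0406), but not without the filter (0.359) or without the trend (0.0643). The medium was not varied apart from the title numbers of the libraries, since the 2% HS libraries both carry number 1 and the 0.2% FBS libraries 2 and 3, so medium and number cannot be told apart.

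A fit with 1 exosome effect common to both media, over the 5 differentiating libraries, gave between −1.05 (Myl6b) and −0.89 (Acta1) for the 6 abundant genes and −0.09 for Myl2. None of the 7 members was called, with adjusted p from 0.705 to 0.872, and 1 had an unadjusted p under 0.05. This fit called 0 genes in either direction, and 6.61% of all genes had an unadjusted p under 0.05.

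Myl2 and Myl3, the slow skeletal and ventricular pair, behaved apart from the other 6. Myl2 (chr5:122100951-122113472, plus strand) was at 4.35 FPKM in 2% HS and 4.82 in 2% HS + exosome. It was at 0.470 FPKM in 10% FBS, 0.501 in 0.2% FBS, and 0.131 and 0.410 in the 2 replicates of 0.2% FBS + exosome (SD 0.197, n = 2). At the estimated depths these are 116 and 113 reads in the 2% HS libraries and 3.18 to 12.8 reads in the other 4. The 2 sets of libraries did not overlap, but the share of all genes with such a split was not counted.

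The Myl2 level in 2% HS was 9.27 times that in 10% FBS and 8.69 times that in 0.2% FBS. These ratios are rough, because the single libraries of 10% FBS and 0.2% FBS held 12.8 and 12.7 estimated reads. The comparison of 0.2% FBS with 2% HS was added after these values had been seen. On the log2 scale Myl2 was lower by 1.83 in 0.2% FBS, the 1 of 8 members below −1, where 0.298% of all genes were. Because Myl2 reached the mean of 1 FPKM only through the 2% HS libraries, this is a description and no test of it is given. With exosomes in 0.2% FBS its differences of log2(FPKM + 1) were −0.41 and −0.09, at a level of so few reads that no fold is given. Even in 2% HS, Myl2 was 0.0590% of the regulatory light chain FPKM, the rest being Mylpf.

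Myl3 (chr9:110741861-110769798, plus strand) was at 0.0364 FPKM in 10% FBS, 0.111 in 2% HS, 0.0842 in 2% HS + exosome, 0.0388 in 0.2% FBS, and 0.0813 and 0 in 0.2% FBS + exosome. These correspond to at most 3.15 estimated reads, so no fold is given and Myl3 did not enter the limma fit. Both genes overlap a gene on the other strand, Ccdc63 for Myl2 (at most 0.0475 FPKM) and Pth1r for Myl3 (0.0125 to 0.278 FPKM). The strand setting used to compute the FPKM is not given in the sources used here.

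The composition of each class was compared within libraries, where scaling between libraries plays no part. Acta1 made up 60.8% of the sarcomeric actin FPKM in 10% FBS, 66.0% in 2% HS, 63.1% in 2% HS + exosome and 61.0% in 0.2% FBS, and 62.6% and 65.3% with exosomes in 0.2% FBS. The actin pair was thus kept within a narrow range while its sum varied from 2465 to 8723 FPKM.

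The essential light chains varied more. Myl1 held 55.5% of their FPKM in 10% FBS, 51.9% in 2% HS, 46.5% in 2% HS + exosome and 51.2% in 0.2% FBS. With exosomes in 0.2% FBS it held 52.0% in replicate 1 and 62.9% in replicate 2. Myl4 held 39.5%, 44.3%, 49.6% and 44.4% in the same 4 single libraries, and 44.3% and 33.0% in the replicates. The ratio of Myl1 to Myl4 was therefore 1.17 in replicate 1, close to the 1.15 of 0.2% FBS, and 1.91 in replicate 2. Only in 2% HS + exosome was Myl4 above Myl1, at a ratio of 0.937. The mean shift of Myl4 with exosomes in 0.2% FBS, −5.78 percentage points, came from replicate 2 alone, since it was −0.106 points in replicate 1 and −11.5 in replicate 2. Myl6b held 3.69% to 5.08% across the 6 libraries.

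**Figure D3:**
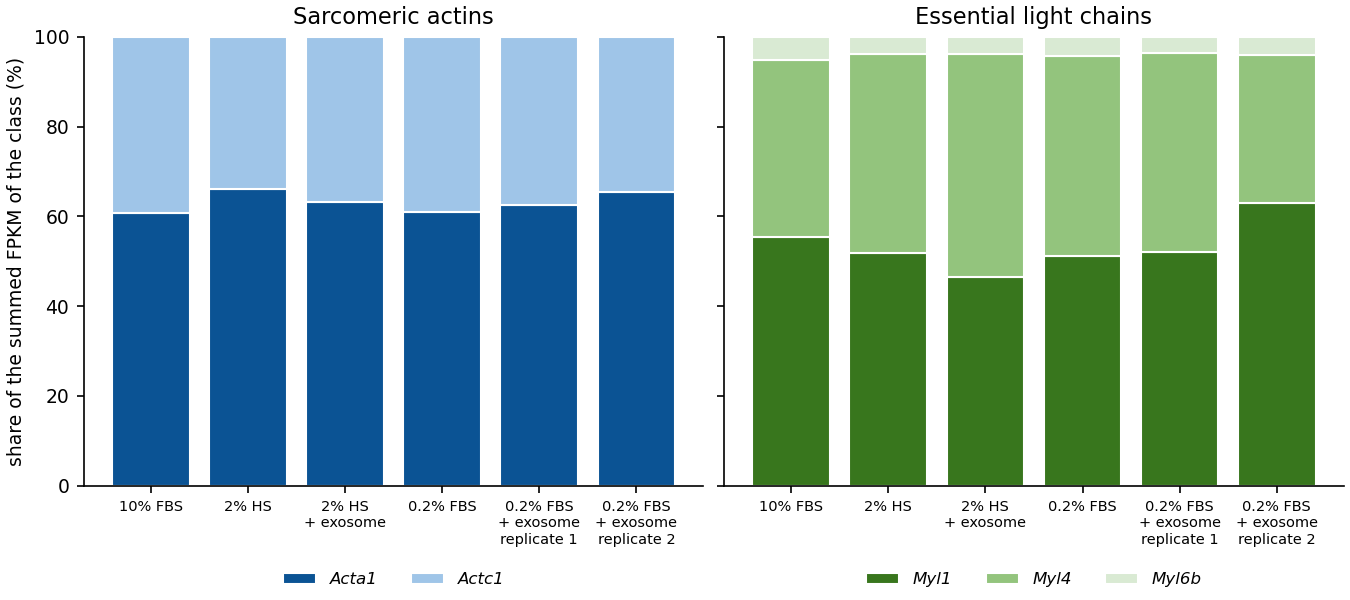
Share of each gene in the summed FPKM of its class in each library, in percent, for the sarcomeric actins and the essential light chains, with 1 bar per library and Myl3 too low to be seen. Acta1 takes 60.8% to 66.0% of the actins throughout, while Myl4 takes 49.6% of the essential chains in 2% HS + exosome and 33.0% in replicate 2 of 0.2% FBS + exosome.

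The light chains were also set against their partners. The summed essential chains were 0.773 times the regulatory chains in 10% FBS, 0.964 in 2% HS, 1.08 in 2% HS + exosome and 0.864 in 0.2% FBS, and 0.919 and 0.790 with exosomes in 0.2% FBS. The regulatory chains were at 3.55 to 4.75 times the sum of 8 striated myosin heavy chain genes, both extremes being the exosome replicates in 0.2% FBS. The essential chains were at 3.19 to 4.54 times that sum. The sums of light and heavy chain FPKM thus kept their proportion within these limits while the regulatory chains varied from 2118 to 8129 FPKM.

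Sarcomeric and cytoplasmic actin did not keep their proportion. Actb and Actg1, the cytoplasmic actins of all cells, summed to 1845 FPKM in 0.2% FBS and to 2802 and 3151 FPKM with exosomes, and to 2217 FPKM in 10% FBS. The ratio of sarcomeric to cytoplasmic actin was 1.51 in 10% FBS, 3.75 in 2% HS, 3.92 in 2% HS + exosome and 4.73 in 0.2% FBS. It was 1.33 and 0.782 with exosomes in 0.2% FBS, so that in replicate 2 the cytoplasmic pair exceeded the sarcomeric one. Myl6b against Myl6, the essential light chain of smooth muscle and non-muscle cells, ran the same way. It was at 0.154 times Myl6 in 0.2% FBS and 0.0576 and 0.0440 times with exosomes, against 0.0855 in 10% FBS.

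The exosome libraries in 0.2% FBS were also set against the growing cells. Relative to 10% FBS the 6 abundant genes were at 0.715 to 1.15 times in replicate 1 and at 0.524 to 0.792 times in replicate 2. On the log2 scale the median over the 8 members was −0.03 in replicate 1, against 0.003 over all genes. In replicate 2 it was −0.52, against 0.07 over all genes. Acta1 and Actc1 were above 10% FBS in replicate 1 and below it in replicate 2, as was Myl4. Mylpf, Myl1 and Myl6b were below it in both on the values as deposited. Relative to Rpl13a the median over the 8 members was 0.15 in replicate 1 (0.30 over all genes) and −0.68 in replicate 2 (−0.07 over all genes). The sign of the median in replicate 1 thus depends on the scaling. No member passed in the limma fit, which called 0.00932% of all genes lower. Unadjusted, 1 member (Myl6b, −0.70, SE 0.26, adjusted p = 0.356) and 11.5% of all genes had a p under 0.05.

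The neighbours of these genes in the contractile machinery were counted in 8 lists, each over its genes whose mean reached 1 FPKM, beside the 1.61% of all genes called lower by the fold threshold with exosomes in 0.2% FBS. The limma counts of these lists stand beside 4.32% of all genes called lower and 8.20% called higher by that fit. Of 7 striated myosin heavy chains 5 were lower by more than 1 in each exosome library and none was higher, with a median of −1.58. Myh3, the embryonic heavy chain and by far the most abundant, was at 738 FPKM in 10% FBS, 1604 in 0.2% FBS and 713 and 404 with exosomes (−1.58, adjusted p = 0.0586). The limma fit called 5 of the 7 lower. Of 12 troponins and tropomyosins, which regulate the thin filament, 6 were lower and none higher, with a median of −1.25, and limma called 4 lower. Tnnc1 was at −1.97 (adjusted p = 0.0568), Tnnt3 at −1.81 (0.0289) and Tnni2 at −1.79 (0.0284). Tpm4, a cytoplasmic tropomyosin, was at 0.76 (0.0572).

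Genes that set the ends and length of actin filaments gave 3 of 10 lower and none higher, with a median of −0.60, and limma called 5 lower and 1 higher, the latter near the share of all genes called higher. The leiomodins Lmod2 and Lmod3, which nucleate actin filaments in striated muscle, fell by 2.06 and 1.79 (adjusted p = 0.00591 and 0.00655), and the capping protein Tmod1 fell by 1.22 (0.00742). Tmod3, the tropomodulin of other cells, rose by 0.77 (0.0254). Of 12 genes for folding actin and myosin only Smyd1, a muscle methyltransferase needed for thick filament assembly, was called, at −1.36 (adjusted p = 0.00701), and the median was −0.17. The chaperonin subunits that fold actin, Cct2 to Cct8 with Tcp1, lay between −0.28 and −0.04.

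The actins and light chains outside the sarcomere differed by less. None of the 4 cytoplasmic and smooth muscle actins was called in either direction, with Actb at 0.56, Actg1 at 0.76, Acta2 at −0.53 and Actg2 at 0.38. None of the 4 other light chains above the minimum was called, with Myl6 at −0.34, Myl12a at −0.34, Myl12b at 0.08 and Myl9 at 0.13 (median −0.13), and the atrial regulatory chain Myl7 was listed at 0 in every library. Of 6 light chain kinase and phosphatase genes none passed the threshold of 1, while limma called 2 lower (4.32% of all genes were), Mylk4 (−0.80, adjusted p = 0.0283) and Ppp1r12b (−0.79, adjusted p = 0.0283), with a median of −0.32. Among 11 regulators of sarcomeric genes Mef2c (−1.56, adjusted p = 0.00655) and Tead4 (−1.32, adjusted p = 0.0101) were called lower, Myf5 rose by 0.96 in the limma fit (adjusted p = 0.0196), and Srf, which encodes serum response factor, was at 0.46 (0.0966). The median of that list was −0.23.

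**Figure D4:**
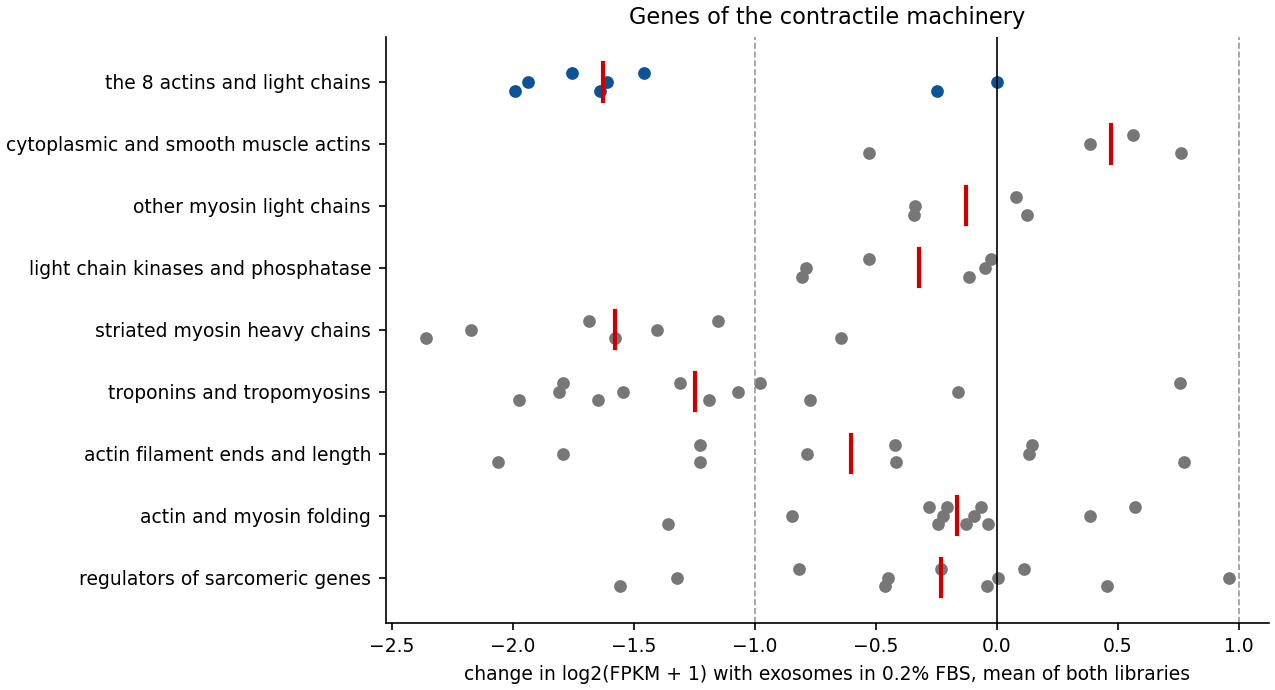
Mean difference in log2(FPKM + 1) with exosomes in 0.2% FBS for the 8 actins and light chains and for 8 lists of related genes, with 1 point per gene, a red bar at the median of each list and dashed lines at 1 and −1; the points are spread vertically only to be seen. The medians of the heavy chains (−1.58) and of the troponins and tropomyosins (−1.25) lie nearest to that of the 8 genes (−1.63), and the cytoplasmic and smooth muscle actins have a median of 0.47.

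The genes whose profile over the 6 libraries was nearest were found by the root mean square difference of centred log2(FPKM + 1) values among the 10731 genes. Nearest to the mean profile of the 7 members above 1 FPKM were Pstpip1 (0.068), Trim72 (0.077), Hephl1 (0.080), Txlnb (0.081) and Aif1l (0.095), followed by Bex1, Tnnt3, Tnnc2, Baiap2l1 and Mttp (0.104 to 0.113). That mean includes Myl2, which reached 1 FPKM only through its 2% HS values and so draws the profile towards those libraries. A mean without Myl2 was not used. Acta1 and Actc1 shared their nearest genes, Pdlim3 and Hspb2, with Hspb3 (0.079) first for Acta1 and Pdlim3 (0.076) first for Actc1. Mylpf was nearest to Mttp (0.023), then Tnni1 and Trim72. Myl1 was nearest to Pstpip1 (0.080), Mylpf (0.091) and Mttp. Myl4 followed Mybph most closely (0.037), which was at 789 FPKM in 0.2% FBS and 273 and 141 FPKM with exosomes, then Adora1 and Casq2. Myl6b was nearest to Tnnt3 (0.076), Filip1 and Txlnb. Myl2 had no near neighbour, the closest being B4galt4 at 0.342 with Serpinb9g and Plekhb1 next, and it was 0.655 to 0.870 from the other members. All these values come from the same 6 libraries and are a description.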

How the data were processed

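The authors trimmed the reads with cutadapt 1.9.1, mapped them to mm10 with TopHat2 2.1.0 and computed FPKM with Cufflinks, and deposited 1 table of FPKM values with a column per library. The libraries were stranded and sequenced as 75 base single-end reads. Values were analysed here as log2(FPKM + 1), which understates changes of low genes, with Python 3.11.15 and limma 3.58.1 (mean-variance trend, Benjamini-Hochberg adjustment over the 10731 genes whose mean reached 1 FPKM, threshold 0.05, 1 residual degree of freedom, or 2 for the common effect). The fits were tested on simulated data, but the outcome is not given here and nothing is concluded from it. Depth was estimated from genes with 1 transcript over 1000 bases, assuming fragments of 200 bases, so no counting intervals are given. Positions and transcripts are from GENCODE on mm10 and promoters from RefSeq on GRCm38.p6. The genes named are the 8 members, genes of the lists, and the 10 profiles nearest to the members' mean and 3 nearest to each member. Members and lists were chosen with earlier results of these data known. Alternatives were the pseudocount, a minimum of 1 FPKM in place of it, 75th percentile scaling, values relative to Rpl13a, no filter, no trend and leaving out each exosome replicate.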

Additional observations from a re-analysis of the deposited data

Results flagged for a closer look

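The limma interaction of exosomes with medium called 8 of the 66 pathway genes tested (adjusted p under 0.05), none of them an actin or light chain. It called 93 genes lower and 32 higher among all 10731. Its only residual degree of freedom comes from the pair of 0.2% FBS + exosome libraries. The calls therefore assume that the single libraries vary like that pair. Other settings of the fit are not given for these 8 genes, and the member calls of this interaction changed with the setting. Subtracting the effect in 2% HS from that in 0.2% FBS gave −3.24 for Myh8, −2.40 for Myh4, −2.05 for Myh7 and −1.78 for Myh6, all heavy chains, −2.10 for Lmod2, −1.96 for Lmod3, −2.07 for Mef2c and −1.58 for Smyd1. Their adjusted p lay between 0.0185 (Mef2c) and 0.0333 (Myh4 and Myh6). Myh8, the perinatal heavy chain, was at 13.2 FPKM in 2% HS and 28.8 in 2% HS + exosome, but at 31.8 in 0.2% FBS and 8.64 and 4.50 in 0.2% FBS + exosome. Within 2% HS alone limma called none of the 8, and the difference of Myh8 passed 1 (1.07). Each medium has 1 library without exosomes, and medium and title number cannot be told apart.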

How the results depend on the processing

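The counts of members past the fold threshold were kept under the other pseudocount, the raised minimum and both scalings, except that Actc1 passed in 2% HS against 10% FBS relative to Rpl13a (1.40). The 6 genes called with exosomes in 0.2% FBS lay between −2.50 and −1.19 under each alternative applied to the mean of both replicates. That range also holds each single replicate on the unscaled values. Single replicates under either scaling were not counted in it, and the lowest member of replicate 2 then fell below −2.50. The limma calls were less stable. With exosomes in 0.2% FBS the 1 member called became 0 with no filter, 2 with 75th percentile scaling (Myl4, adjusted p = 0.0475, with Myl6b) and 6 with no trend. For the difference between media the 0 members called became 1 (Myl6b) with a pseudocount of 0.1 (−2.09) and with 75th percentile scaling (−2.27). For 2% HS against 10% FBS the 1 member called became 0 under each of the 4 alternatives, with Myl2 at an adjusted p of 0.0608 with a pseudocount of 0.1, 0.414 with no filter, 0.0525 with scaling and 0.0946 with no trend. The cause was not tested. Leaving out 1 exosome replicate moved the share of Acta1 between 1.61 and 4.31 percentage points, of Myl1 between 0.792 and 11.8, of Myl4 between −11.5 and −0.106 and of Myl6b between −0.689 and −0.309, and the common effect called 0 members throughout. The fit with 1 mean per condition has no residual degree of freedom without 1 of these replicates and was not run so. No paired analysis was possible within a medium, where the groups share at most 1 title number. Over both media the title numbers give 2 pairs, and the common effect without replicate 2 is that paired fit, with −0.81 (Mylpf) to −0.60 (Myl4) for the 6 abundant genes and 0 members called. Depth limits Myl3 and, outside 2% HS, Myl2.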

Other observations

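Tpm3, the slow muscle and cytoplasmic α-tropomyosin, was chosen after its values had been seen because it shared the split by medium seen for Myl2. It was at 322 FPKM in 2% HS and 261 in 2% HS + exosome, and at 150 in 10% FBS, 150 in 0.2% FBS, and 131 and 137 in the 2 replicates of 0.2% FBS + exosome. Its difference between 2% HS and 10% FBS was 1.10 on the log2 scale, where 1.79% of all genes were higher by more than 1. The 2% HS libraries did not overlap with the other 4, but the share of all genes with such a split was not counted. Tnnt1, the slow troponin T, was also highest in the 2% HS libraries, at 730 and 648 FPKM, but was at 625 FPKM in 0.2% FBS. Myh7, the slow heavy chain, was at 25.9 FPKM in 2% HS and 55.3 in 0.2% FBS, and Tnni1, the slow troponin I, at 1499 and 1606 FPKM.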
